A study of Mus musculus with 22 samples.

Results

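Levels of 10 transcription factor genes of cardiac and pharyngeal mesoderm were followed through mouse gastruloids. The genes are Hand1, Hand2, Isl1, Nkx2-5, Gata4, Gata5, Gata6, Tbx1, Tbx5 and Mef2c. They were taken by symbol from the 32285 genes of the count matrices, and each symbol occupied a single row. Gastruloids are cultured aggregates of embryonic stem cells in which tissues of the post-implantation embryo arise. All were wild type (WT) and came from the E14Tg2A mouse embryonic stem cell line, seeded at 300 cells per well. After an aggregation time of 48 h they received a pulse of 3 µM CHIR99021, which inhibits the kinase GSK3 and so activates Wnt signalling. The cells of a gastruloid carried their own lipid-anchored DNA barcode (MULTI-seq) before capture on a 10x Chromium lane, so the gastruloid was the replicate. The groups were 24 gastruloids of day 5 in MULTI-seq 1, while MULTI-seq 2 gave 11 of day 4 and 12 of day 4.5. MULTI-seq 3 gave 24 of day 3 and 16 each of days 3.5, 4, 4.5 and 5. Days 3.5 and 4 of MULTI-seq 3 shared a pool of cells and its lanes, as did days 4.5 and 5 of MULTI-seq 3 and days 4 and 4.5 of MULTI-seq 2. The 10X experiment and pool C of MULTI-seq 2 (days 4 and 4.5) had no gastruloid call per cell and were described by lane only. As a model each group is limited to 1 cell line.

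Hand1 and Hand2 are basic helix-loop-helix factors of lateral plate and heart mesoderm that bind E-box sequences. Isl1, a LIM homeodomain factor, marks the second heart field and pharyngeal mesoderm, and Tbx1, a T-box factor, acts in pharyngeal mesoderm and in the second heart field. Gata4, Gata5 and Gata6 are zinc finger factors of cardiac mesoderm that are also used in endoderm. Nkx2-5 and Tbx5 act in cardiac progenitors and early cardiomyocytes, whereas Mef2c is a MADS-box factor of both heart muscle and endothelium.

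The 18 lanes held 64703013 to 307883815 unique molecular identifiers (UMIs, the counted RNA molecules) each, and the median cell of a lane held 8287 to 38443. Of 77674 cells, 53730 had a gastruloid call, and 135 of 136 gastruloids had the 30 cells required. Among the cell barcodes, 732 occurred in more than 1 lane, which is 0.951% of the distinct barcodes, and 95 did so within 1 pool. No doublet caller was run. The authors' deposited cell table marks 4797 cells (6.18%) as doublets, and marks 0 in the lanes of MULTI-seq 1, of the 10X experiment and of pool C, so no marked doublets were set aside there. They have no gastruloid call and so entered no test and no value per gastruloid, but they stayed in levels pooled over a type and in shares of cells with a UMI. The gastruloids are separate aggregates of 1 line, so p-values measure the spread between aggregates only.

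All member identifiers were found in the GENCODE annotation of GRCm38. Hand1 lies on chromosome 11 (57828705 to 57832818, minus strand), Hand2 on chromosome 8 (57320983 to 57324633, plus strand) and Isl1 on chromosome 13 (116298281 to 116309689, minus strand). Tbx1 lies on chromosome 16 (18580979 to 18590671, minus strand) and Mef2c on chromosome 13 (83504034 to 83667080, plus strand). Hand2, Gata5 and Gata6 overlap the genes Hand2os1, Gata5os and 1010001N08Rik on the opposite strand. No source used here states whether counting used strand, so reads of each overlapping pair may not have been told apart.

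Promoter sequences from RefSeq (GRCm38.p6), from 250 bases before to 50 bases after a start site, were held for 6 of the 10 members, in 9 entries. Those of Hand2, Isl1, Tbx1 and Mef2c are shown because their mean levels in cells named Cardiopharyngeal Mesoderm were 21.9 to 56.1 CPM (counts per 1e+06 UMIs), whereas Gata5 and Nkx2-5 stood at 4.11 and 0.522 there. Capitals mark matches on either strand of AGATAA, which factors of the Gata family bind, and of the E-box, which is CANNTG. The regions are chr8:57320733-57321032 (plus strand) for Hand2, chr13:116309639-116309938 (minus) for Isl1, chr16:18590622-18590921 (minus) for Tbx1 and chr13:83503784-83504083 (plus) for Mef2c.
Hand2: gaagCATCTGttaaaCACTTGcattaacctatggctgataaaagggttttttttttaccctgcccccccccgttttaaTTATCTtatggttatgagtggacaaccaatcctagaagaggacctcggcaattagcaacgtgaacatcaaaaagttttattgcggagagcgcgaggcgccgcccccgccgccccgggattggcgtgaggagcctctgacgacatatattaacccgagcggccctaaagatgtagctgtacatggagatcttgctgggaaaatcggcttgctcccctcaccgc
Isl1: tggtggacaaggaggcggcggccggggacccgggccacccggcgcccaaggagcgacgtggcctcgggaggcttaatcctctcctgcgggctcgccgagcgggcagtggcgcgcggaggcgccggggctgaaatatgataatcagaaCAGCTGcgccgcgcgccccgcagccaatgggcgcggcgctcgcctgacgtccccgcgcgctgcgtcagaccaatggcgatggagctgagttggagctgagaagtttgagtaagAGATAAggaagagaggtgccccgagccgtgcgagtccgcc
Tbx1: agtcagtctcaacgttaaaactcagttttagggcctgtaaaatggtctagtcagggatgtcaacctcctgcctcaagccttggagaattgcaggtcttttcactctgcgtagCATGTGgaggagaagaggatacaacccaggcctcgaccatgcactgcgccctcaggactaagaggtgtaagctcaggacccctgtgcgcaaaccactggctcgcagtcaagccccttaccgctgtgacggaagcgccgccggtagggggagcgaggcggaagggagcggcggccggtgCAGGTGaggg
Mef2c: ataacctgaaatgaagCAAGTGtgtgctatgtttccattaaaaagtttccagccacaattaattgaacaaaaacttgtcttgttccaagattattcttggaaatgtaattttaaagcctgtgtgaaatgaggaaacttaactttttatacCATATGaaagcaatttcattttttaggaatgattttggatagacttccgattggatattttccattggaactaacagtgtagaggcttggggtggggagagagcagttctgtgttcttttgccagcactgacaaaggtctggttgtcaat
Hand2 had 1 AGATAA match, 172 bases before the start site, and 2 CANNTG matches. Isl1 had 1 match of each motif, with AGATAA 10 bases after the start site. This Tbx1 entry and this Mef2c entry had 2 CANNTG matches each and no AGATAA match. Among 32851 promoter entries of the same length, 11.2% held AGATAA, 72.3% held CANNTG and 8.50% held both. The T-box motif AGGTGTG, found in 5.84% of all entries, occurred only once in the member entries read, at another start site of Mef2c. The NK homeodomain motif TNAAGTG (11.5% of all entries) had no match in the 9 member entries. These matches describe letters in the windows and do not show binding.

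Between days 3.5 and 4 of MULTI-seq 3, Hand1, Isl1, Gata4 and Gata6 rose. Hand2 and Tbx1 were close to 0 at day 3.5 and were also called higher at day 4, a direction that the filter on low counts largely fixed. Levels are in CPM (the gene's count divided by all UMIs of the gastruloid's cells and scaled to 1e+06), and log2 fold changes, with SE, come from edgeR's quasi-likelihood test with Benjamini-Hochberg adjustment over all genes tested. Of the 13262 genes tested, 60.4% passed at an adjusted p of 0.05, and 31.1% passed as higher at day 4. Of the 10 members, 7 passed the filter on low counts, which asked for 0.561 CPM with a minimum of 14.2 among the 32 gastruloids. Called higher were Hand1, Hand2, Isl1, Gata4, Gata6 and Tbx1, of which Hand2 and Tbx1 reached that level in 2 and 4 of 16 gastruloids at day 3.5 and in 13 and 14 at day 4. In such whole sums, more cells of a type and more RNA per cell cannot be told apart.

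Hand1 in whole gastruloids was 0.11 to 13.7 CPM at day 3.5 (median 0.797, n = 16) and 0.062 to 71.7 CPM at day 4 (median 4.11, n = 16). The ranges overlapped, and 5 of 16 day 4 gastruloids were above every day 3.5 gastruloid. Hand1 rose by 2.88 ± 0.75 on the log2 scale (adjusted p = 0.00138). A single gastruloid held 68.8% of the 414 Hand1 UMIs of day 3.5, and 1 held 38.8% of the 7861 of day 4.

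Hand2 was 0 to 0.625 CPM at day 3.5 (median 0.060) and 0.062 to 16.6 CPM at day 4 (median 3.34). Every day 4 gastruloid was above the day 3.5 median, and 12 of 16 were above the highest one. The log2 fold change was 4.83 ± 0.73 (adjusted p = 1.53e-06). Tbx1 went from 0 to 0.831 CPM at day 3.5 (median 0.347) to 0.37 to 33.0 CPM at day 4 (median 5.16), and 14 of 16 day 4 gastruloids were above every day 3.5 gastruloid. Its log2 fold change was 4.98 ± 0.67 (adjusted p = 2.48e-07). Hand2 and Tbx1 held 34 and 82 UMIs in all of day 3.5, so both passed the low-count filter mainly through day 4 and their calls are no support for a rise.

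Isl1 was 0.841 to 22.8 CPM at day 3.5 (median 3.81) and 2.47 to 40.0 CPM at day 4 (median 20.2). The groups overlapped, with 7 of 16 day 4 gastruloids above the day 3.5 range, and Isl1 rose by 1.54 ± 0.40 (log2, adjusted p = 0.00138). Gata6 was 0 to 21.2 CPM at day 3.5 (median 1.63) and 0.988 to 47.0 CPM at day 4 (median 26.4), a log2 rise of 2.11 ± 0.49 (adjusted p = 0.000453). In the separate day 3 pool, Gata6 had stood at 3.08 to 47.0 CPM (median 9.82, n = 24), which overlapped the day 4 values. Gata4 had medians of 1.56 CPM at day 3, 0.787 at day 3.5 and 5.33 at day 4 and a log2 rise of 1.87 ± 0.45 between the last 2 days (adjusted p = 0.000719).

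Mef2c was 3.34 to 15.7 CPM at day 3.5 (median 8.56) and 4.14 to 24.1 CPM at day 4 (median 11.2). Only 2 of 16 day 4 gastruloids were above the day 3.5 range, and the log2 difference of 0.32 ± 0.20 did not pass the test (adjusted p = 0.184). Gata5, Tbx5 and Nkx2-5 were filtered as low. With no filter they had log2 differences of 4.29 (adjusted p = 8.37e-05), 2.51 (adjusted p = 6.83e-06) and 1.17 (adjusted p = 0.0390) by the same edgeR test. Their highest day 4 levels were 2.51, 1.84 and 0.431 CPM.

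Cells that the authors named Cardiopharyngeal Mesoderm were 0 of 4679 at day 3.5 and 1223 of 13750 at day 4, a mean of 6.81% ± 9.91 (SD, n = 16) of a gastruloid's cells. With those cells left out, all 6 calls stayed past the threshold: Hand1 at 2.63, Hand2 at 4.35, Isl1 at 1.34, Gata4 at 1.84, Gata6 at 2.05 and Tbx1 at 4.64 (log2). Mef2c then stood at 0.01 (adjusted p = 0.960). When 1 of the 4 lanes was left out, Hand2 fell below the low-count filter each time, and Tbx1 did so without lane B. The other calls remained with every lane left out. Day 4 gastruloids also held more UMIs (14647539 to 57333371) than those of day 3.5 (3081996 to 20789027). Of other markers, 6 of 6 Head Mesoderm genes were higher at day 4 (summed level 40.1 to 597 CPM against 22 to 130), as were 7 of 8 Mature Endoderm genes (51.5 to 1348 CPM against 106 to 393) and 3 of the 6 Somite genes, of which 3 were tested (13.4 to 537 CPM against 4.2 to 24.3). Of the 8 cardiac markers other than the members, 5 were tested and 4 were higher (1.78 to 107 CPM against 2.14 to 50.2), and the 1 extraembryonic endoderm marker tested was higher. Other lists had lower members: 2 of 3 endothelial genes tested were lower and 1 higher, 2 of 4 genes of Neurons were lower and 0 higher, 2 of 5 Early Nascent Mesoderm genes were lower and 1 higher, and 1 of 5 spinal cord genes was lower and 2 higher. The part of depth and of these types in the result was not tested.

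The lists of related genes are set against the 31.1% of all genes tested that were called higher. Through which day each list gene passed the filter on low counts was not examined. For a gene that passed mainly through day 4, the filter largely fixed the direction, so these calls are a description. The same limit holds for the marker lists above and for the lists of the later comparisons. Of 18 other cardiac progenitor regulators, 11 were tested and 8 were higher at day 4, with a median log2 difference of 1.23 against 0.01 over all genes tested. Meis1, a homeodomain cofactor, rose by 2.75 ± 0.32 (adjusted p = 1.66e-08), and Smarcd3, a chromatin remodelling subunit used in heart progenitors, rose by 1.56 ± 0.28 (adjusted p = 1.99e-05). Of 18 pharyngeal and second heart field genes, 15 were tested, 12 were higher and 1 was lower (median 1.41). Six2, a homeodomain factor of head mesoderm, rose by 3.76 ± 0.47 (adjusted p = 8.17e-08). Of 18 contractile genes, 11 were tested, 9 were higher and 1 was lower (median 1.44), with Myl3, a myosin light chain, at 3.28 ± 0.47 (adjusted p = 5.57e-07). Myl3 had its highest pooled level in Mature Endoderm (38.8 CPM, against 2.15 in Cardiopharyngeal Mesoderm). Mature Endoderm had 46 cells at day 3.5 and 1188 at day 4, and its part in the Myl3 value was not tested. Of 7 BMP and FGF ligands, all were tested and 2 were higher (median 0.18), a share near that of all genes: Bmp5 at 1.88 ± 0.38 (adjusted p = 8.19e-05) and Bmp4 at 1.19 ± 0.39 (adjusted p = 0.00901).

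**Figure D1:**
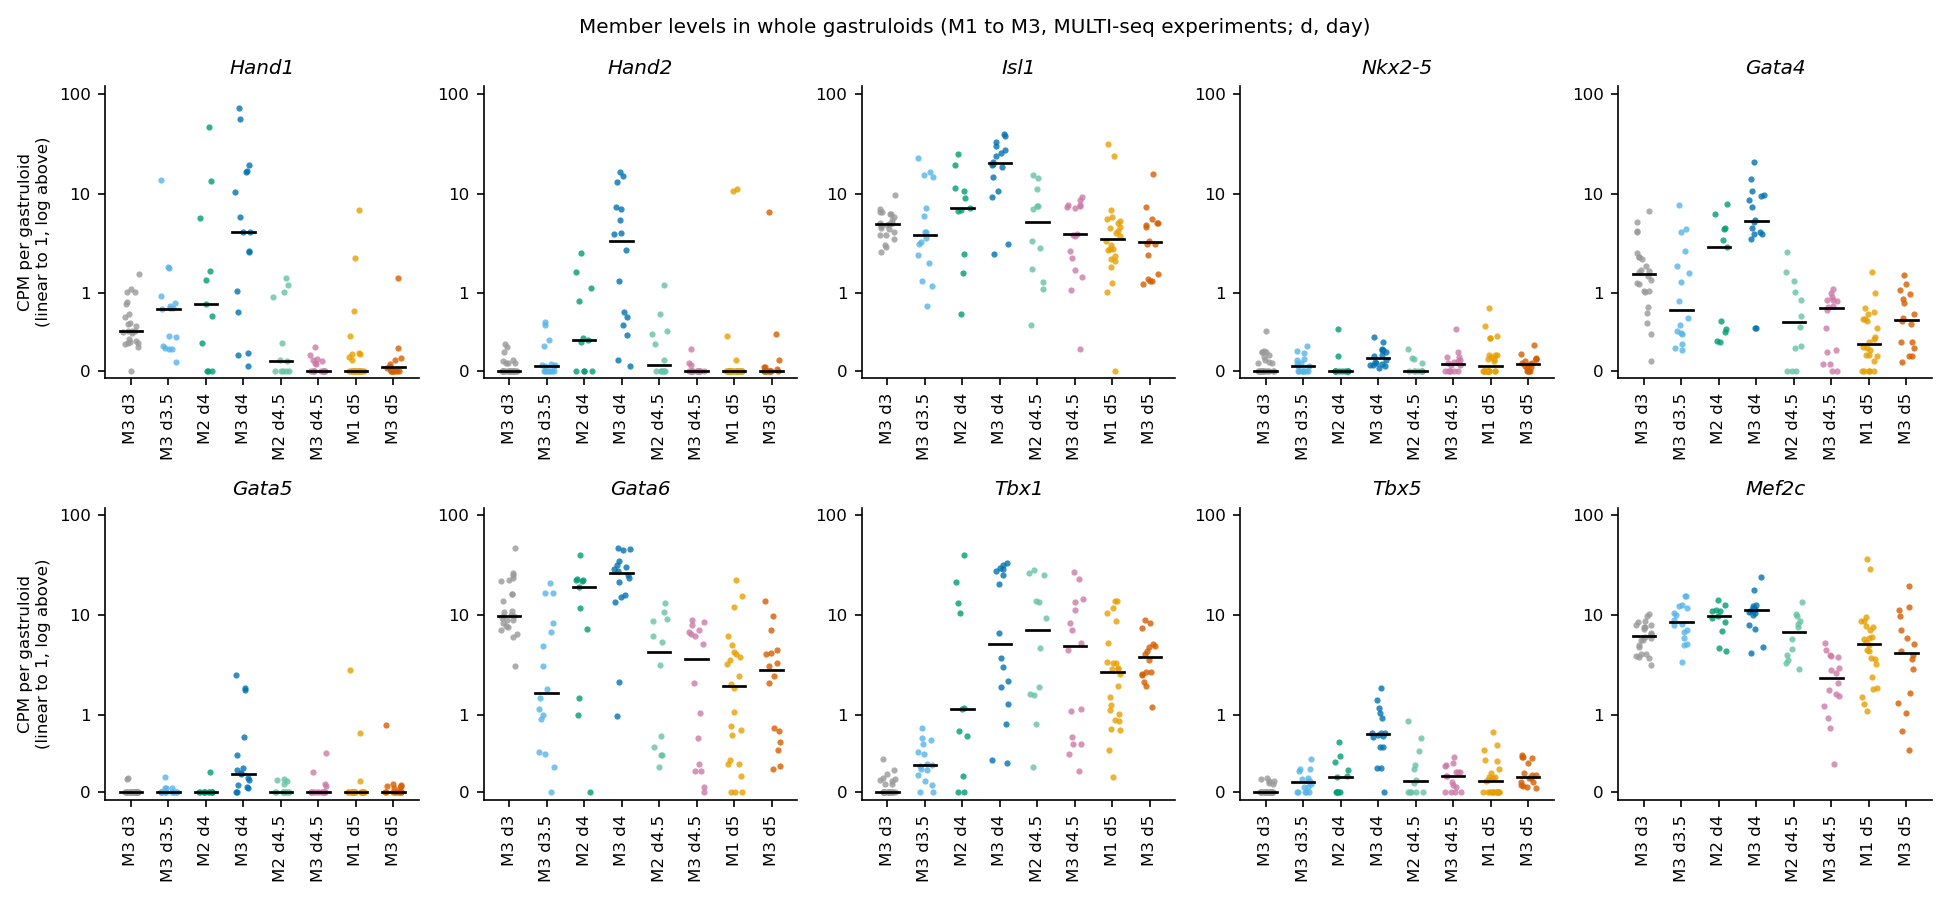
Level of each member in every gastruloid, in CPM (linear up to 1, logarithmic above), by experiment (M1 to M3, MULTI-seq 1 to 3) and day (d); each point is a gastruloid and each bar the median. Hand1, Hand2, Isl1, Gata4, Gata6 and Tbx1 have their highest median in MULTI-seq 3 at day 4 or, for Tbx1, in MULTI-seq 2 at day 4.5, and the points of every group spread widely.

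After day 4 no member passed the test between neighbouring days of a pool in whole gastruloids. Between days 4.5 and 5 of MULTI-seq 3, 13.5% of 12298 genes were called, and 0 of the 4 members tested were. Mef2c was 0.368 to 5.23 CPM at day 4.5 (median 2.35) and 0.55 to 19.6 CPM at day 5 (median 4.12), with 6 of 16 day 5 gastruloids above the day 4.5 range. Its log2 difference was 1.12 ± 0.39 by edgeR (unadjusted p = 0.00725, adjusted p = 0.0525), and by DESeq2 it was called, at 1.15 (adjusted p = 0.0252). At day 5, 57.9% of the Mef2c UMIs lay in Endothelium cells. The summed level of the 8 endothelial markers was 6.2 to 28.2 CPM at day 4.5 and 7.6 to 63.5 CPM at day 5, and 0 of the 3 tested were called. Of 5 Somite markers tested 2 were higher at day 5 (median 0.86, summed level 179 to 1049.9 CPM against 58.8 to 784), and their part was not tested. Tbx1 (-0.84, adjusted p = 0.229), Isl1 (-0.21, adjusted p = 0.768) and Gata6 (-0.12, adjusted p = 0.928) did not pass. At an unadjusted p under 0.05, Mef2c was the only one of these 4. In the related lists, Hopx rose by 1.64 ± 0.48 (adjusted p = 0.0190) and Hey2, a Notch target of the heart, by 0.51 ± 0.17 (adjusted p = 0.0373), as 2 of the 12 regulators tested. The highest pooled level of Hopx was in Endothelium (93.2 CPM, against 6.95 in Cardiopharyngeal Mesoderm), a type with 12 cells at day 4.5 and 122 at day 5, and its part in the Hopx value was not tested. Of 13 pharyngeal and second heart field genes tested, Aldh1a2, which makes retinoic acid, fell by 1.14 ± 0.31 (adjusted p = 0.0120) and Mef2a rose by 0.16 ± 0.05 (adjusted p = 0.0288). Of 7 BMP and FGF ligands tested, Fgf3 fell by 0.91 ± 0.31 (adjusted p = 0.0450). None of the 7 contractile genes tested passed in that fit.

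Hand2 at day 5 was carried by single gastruloids. In MULTI-seq 3 it was listed at 0 in 10 of 16 day 5 gastruloids, and the highest had 6.49 CPM. In MULTI-seq 1 it was at 0 in 20 of 24, the highest had 11.1 CPM, and 3 gastruloids held 99.2% of its 129 UMIs. Hand1 showed a like picture in MULTI-seq 1, with 15 of 24 at 0 and a highest level of 6.87 CPM.

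In MULTI-seq 2, 7.36% of 11064 genes were called between days 4 and 4.5, and 0 of the 4 members tested were. Gata6 was 0 to 40.2 CPM at day 4 (median 19.2, n = 11) and 0.322 to 13.3 CPM at day 4.5 (median 4.24, n = 12), and every day 4.5 gastruloid was below the day 4 median. Its log2 difference was -1.61 ± 0.52 (unadjusted p = 0.00491, adjusted p = 0.0608, edgeR), and DESeq2 called 0 of the 4 (Gata6 adjusted p = 0.106). Gata6 was called where gastruloids needed 100 cells (-1.73, adjusted p = 0.0369), which left 6 of day 4 and 11 of day 4.5. It was also called without lane 2 (adjusted p = 0.0415) or lane 3 (adjusted p = 0.0472), with 10 and 9 gastruloids of day 4. The same held without the Cardiopharyngeal Mesoderm cells (-1.69, adjusted p = 0.0482). Gata6 was not called with RLE size factors or with no filter. With 100 cells Gata4 passed the filter and was called too (-1.83, adjusted p = 0.0484). Among all gastruloids Gata4 reached the main filter's level (1.80 CPM) in 6 of 11 at day 4 and 1 of 12 at day 4.5. It thus passed mainly through day 4, and its call is no support for a fall. Of the Mature Endoderm markers, 3 of 8 were lower at day 4.5 (median log2 difference -1.47, summed level 24.8 to 463 CPM against 32.7 to 1374). Of 5 Early Nascent Mesoderm markers, 3 were tested and all 3 were lower (median -1.58, 10.5 to 117 CPM against 41.2 to 355). Among spinal cord markers 1 of 5 was higher, and among those of Neurons 1 of the 3 tested. The part of these types in the Gata6 values was not tested. Tbx1 differed by 0.20 (adjusted p = 0.925), Isl1 by -0.55 (adjusted p = 0.525) and Mef2c by -0.43 (adjusted p = 0.288). With no filter on low counts Hand1 was called lower at day 4.5 (-3.93, adjusted p = 0.0111), from 0 to 46.7 CPM at day 4 (median 0.854) to 0 to 1.43 CPM (median 0.131), and 1 of the 11 day 4 gastruloids held 72.8% of the 276 Hand1 UMIs. In the related lists 1 gene each was called among 5 contractile genes, 10 regulators and 12 pharyngeal and second heart field genes tested, and 0 of 7 ligands. Myl7, an atrial myosin light chain, fell by 2.74 ± 0.60 (adjusted p = 0.00610) and Mesp1, a factor of the earliest cardiac mesoderm, fell by 1.58 ± 0.48 (adjusted p = 0.0428). Sema3c, a secreted semaphorin of the outflow tract, rose by 0.99 ± 0.19 (adjusted p = 0.00197).

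Day 5 gastruloids of MULTI-seq 3 and MULTI-seq 1 differed in 63.7% of 11718 genes, and 0 of the 4 members tested were called. The log2 differences of MULTI-seq 3 from MULTI-seq 1 were -0.20 ± 0.37 for Isl1, 0.23 ± 0.50 for Gata6, 0.32 ± 0.34 for Tbx1 and -0.13 ± 0.39 for Mef2c (lowest adjusted p = 0.416, Tbx1). The unadjusted p was above 0.05 for each of them, by DESeq2 0 were called too, and the SEs do not show that the levels were alike. Of the listed genes, 2 of 7 contractile genes tested were higher in MULTI-seq 3 (Tnnc1 at 1.38 ± 0.53, adjusted p = 0.0210, and Tpm1 at 0.67 ± 0.15, adjusted p = 0.000115). Of 6 BMP and FGF ligands tested, 3 were lower, with Fgf3 at -1.12 ± 0.24 (adjusted p = 0.000100). Among 12 pharyngeal and second heart field genes tested, 3 were higher, with Six2 at 0.81 ± 0.28 (adjusted p = 0.0112), and among 12 regulators tested 2 were higher and 1 was lower. Of other markers, 3 of 8 Mature Endoderm genes (median 1.14), 3 of 6 Head Mesoderm, 2 of 6 Somite and 1 of 6 endothelial genes tested were higher and 1 of 4 genes of Neurons was lower. The Mature Endoderm sum was 22.6 to 627 CPM in MULTI-seq 3 and 13.7 to 455 in MULTI-seq 1, and Tnnc1 had its highest pooled level in that type (35.3 CPM). The part of these types was not tested. Experiment and batch cannot be told apart here, and the MULTI-seq 3 gastruloids are those of the day 5 against day 4.5 comparison.

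Among the 25 cell type names of the authors' deposited table, all but Neurons and PGCs had a mean level over gastruloids. Of these, Cardiopharyngeal Mesoderm held the highest mean level of Hand1, Hand2, Isl1, Gata5 and Tbx1. The names were given from expression, so differences between types are described with no test. Values are means ± SD over gastruloids with at least 10 cells of the type. The label was checked with 8 cardiac markers other than the members. Only Foxf1 (18.6 CPM) and Myl7 (16.0 CPM) reached 10 CPM in the pooled cells of that name, 2 of the 8 had their highest level there, and Myl7 was higher in Late Nascent Mesoderm (139 CPM). Tnnt2, cardiac troponin T, stood at 7.81 CPM in the 2360 cells.

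Hand1 was 46.4 ± 83.2 CPM in Cardiopharyngeal Mesoderm (n = 19), 26.7 ± 51.4 in Late Nascent Mesoderm (n = 19) and 11.2 ± 18.7 in Early Anterior PSM (n = 22). Hand2 was 21.9 ± 24.0 CPM in Cardiopharyngeal Mesoderm and 15.4 ± 15.3 in Late Nascent Mesoderm. For both Hand genes these neighbours differed by less than the spread between gastruloids. Under the names of the authors' mapping to an embryo reference, the highest mean of Hand1 over at least 3 gastruloids was in Paraxial mesoderm (18.0 ± 36.4 CPM, n = 43), and that of Hand2 was in first heart field (FHF) cardiopharyngeal progenitors (22.5 ± 17.3, n = 8).

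Isl1 was 56.1 ± 28.8 CPM in Cardiopharyngeal Mesoderm and 28.4 ± 16.9 in Early Posterior PSM (n = 52), again within the spread. The 70 cells named Neurons, in which Isl1 is a known factor of motor neurons, had a pooled level of 90.03 CPM, but no gastruloid held 10 of them. Tbx1 was 43.0 ± 30.3 CPM in Cardiopharyngeal Mesoderm, 30.7 ± 27.8 in Mature Somites (n = 71) and 28.7 ± 18.7 in Head Mesoderm (n = 27), with no step beyond the spread.

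Gata6 had its highest level in Anterior Primitive Streak, at 137 ± 29.0 CPM (n = 4), which was above Early Nascent Mesoderm (68.9 ± 19.99, n = 30) by more than the spread. Late Nascent Mesoderm (52.7 ± 18.6), Mature Endoderm (46.3 ± 22.1, n = 46), Endothelium (42.1 ± 23.9, n = 7) and Cardiopharyngeal Mesoderm (37.3 ± 21.0) followed without a step of that size. Gata4 was highest in Late Nascent Mesoderm (23.6 ± 13.5 CPM), followed by Early Nascent Mesoderm (11.98 ± 8.59), Anterior Primitive Streak (8.63 ± 4.20, n = 4) and Cardiopharyngeal Mesoderm (5.67 ± 6.22). Gata5 was 4.11 ± 5.60 CPM in Cardiopharyngeal Mesoderm.

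Mef2c was 222 ± 49.5 CPM in Endothelium (n = 7), above Cardiopharyngeal Mesoderm (52.6 ± 52.4) by more than the spread, and 18.6 ± 9.27 in Early Anterior PSM. Tbx5 reached 1.60 ± 1.45 CPM in Late Nascent Mesoderm, 1.53 ± 1.58 in Head Mesoderm and 1.10 ± 1.07 in Cardiopharyngeal Mesoderm. Nkx2-5 had 55 UMIs in all 2360 Cardiopharyngeal Mesoderm cells, a pooled level of 0.785 CPM. Its highest mean over gastruloids was in Endothelium (1.16 ± 2.53 CPM, n = 7), on 2 UMIs in all 303 cells of that type.

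**Figure D2:**
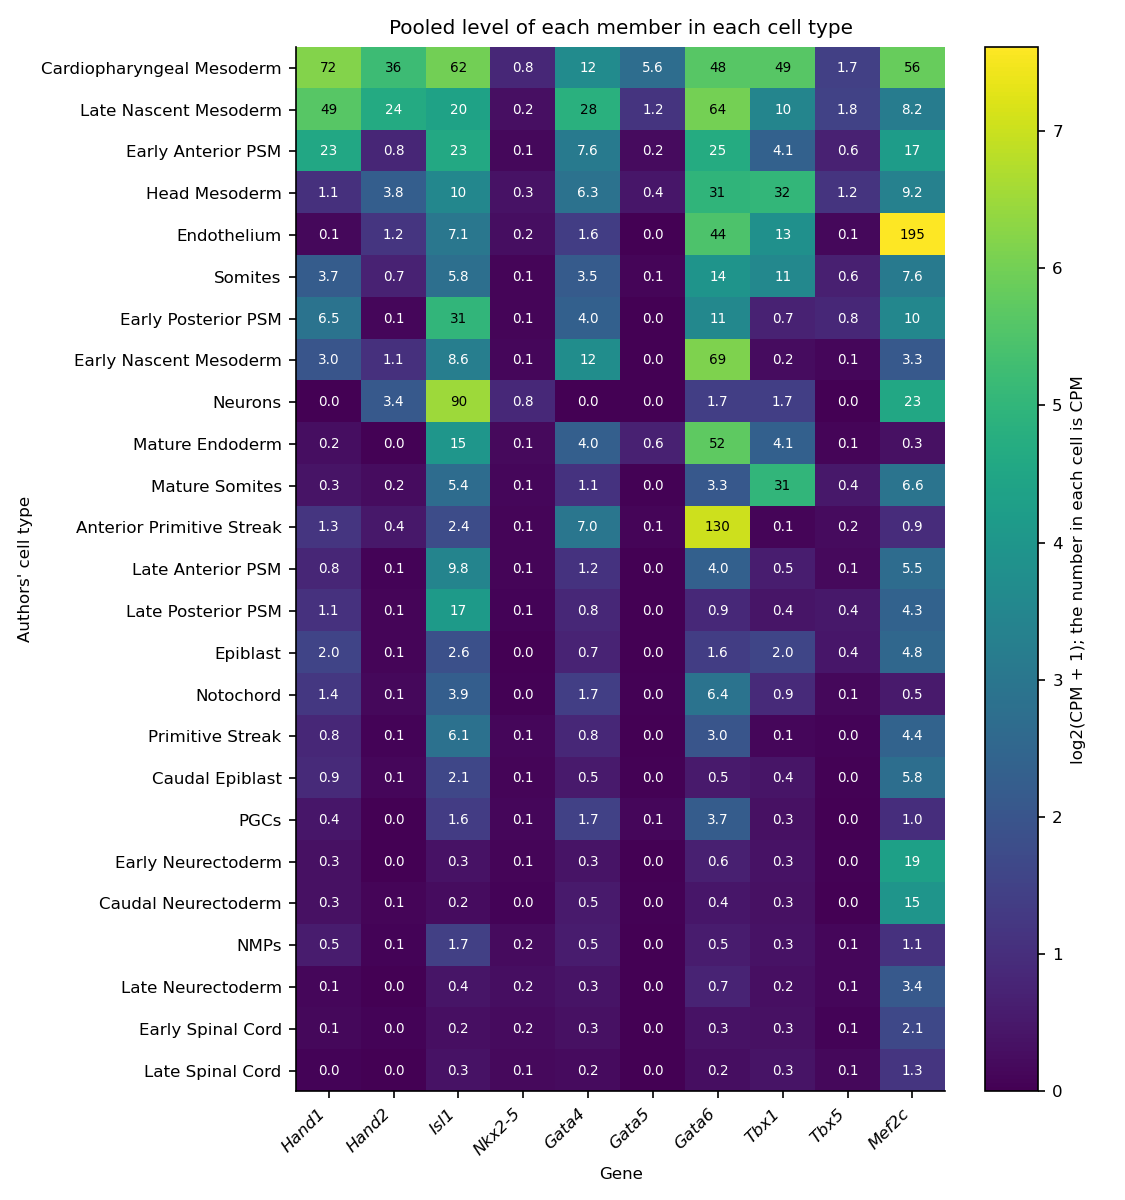
Pooled level of each member (columns) in each of the 25 cell types (rows), as log2(CPM + 1) in colour with the CPM printed in each cell. Hand1, Hand2, Gata5 and Tbx1 are brightest in Cardiopharyngeal Mesoderm, Gata6 in Anterior Primitive Streak and Mef2c in Endothelium.

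The cells with a UMI of a member were counted after each cell was thinned to 5000 UMIs, which left 2353 Cardiopharyngeal Mesoderm cells and dropped 7. Isl1 was found in 24.5% of them (exact binomial 95% interval 22.8 to 26.3%, 64.0% unthinned), Hand1 in 18.6% (34.5% unthinned), Tbx1 in 17.7% (45.4%), Gata6 in 17.5% (51.9%), Mef2c in 16.8% (43.0%) and Hand2 in 15.4% (35.6%). In Late Spinal Cord cells, a type that should lack most of these genes, the shares were 0.120% for Isl1, 0.137% for Tbx1, 0.154% for Gata6, 0.703% for Mef2c and 0.0343% for Hand2, and Hand1 was found in 0 of 5835 cells, which allows up to 0.0632%. Median depths were 24465 UMIs in the first type and 24617 in the second. Nkx2-5 was found in 0.510% of Cardiopharyngeal Mesoderm cells (0.264 to 0.889%) and in 0.103% of Late Spinal Cord cells (0.0377 to 0.224%). With the 63 Cardiopharyngeal Mesoderm cells marked as doublets left out, a choice made after seeing the data, Hand1 was found in 18.8% and Tbx1 in 17.7%. Mef2c was found in 50.7% of Endothelium cells (81.2% unthinned, median depth 22577). These intervals, and those on lanes, cover counting error only.

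The UMIs of each member were also divided by cell type. At day 4 of MULTI-seq 3, Cardiopharyngeal Mesoderm held 9.10% of all UMIs but 60.1% of those of Gata5, 41.2% of Hand2, 31.7% of Tbx1, 31.2% of Mef2c, 27.4% of Hand1, 24.1% of Isl1 and 15.7% of Gata6. Late Nascent Mesoderm held more of the Hand genes, with 49.7% of Hand2 and 40.8% of Hand1, and Mature Somites held 35.1% of Tbx1. At day 5 of MULTI-seq 3 the type held 0.655% of all UMIs, 85.1% of Hand2 and 69.2% of the 39 UMIs of Hand1. A single gastruloid held 85.5% of the cells of the type, 88.8% of the Hand2 UMIs and 66.7% of the Hand1 UMIs of that group. At day 5 of MULTI-seq 1 it held 1.45% of all UMIs, 96.9% of Hand2 and 54.4% of Hand1, with 56.6% of the Hand2 and 59.6% of the Hand1 UMIs in 1 gastruloid each. Tbx1 was by then mostly in Mature Somites, with 66.3% of its UMIs in MULTI-seq 3 and 69.4% in MULTI-seq 1. The Gata6 share of Mature Endoderm was 49.5% in MULTI-seq 3 and 27.9% in MULTI-seq 1. These shares were not tested.

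**Figure D3:**
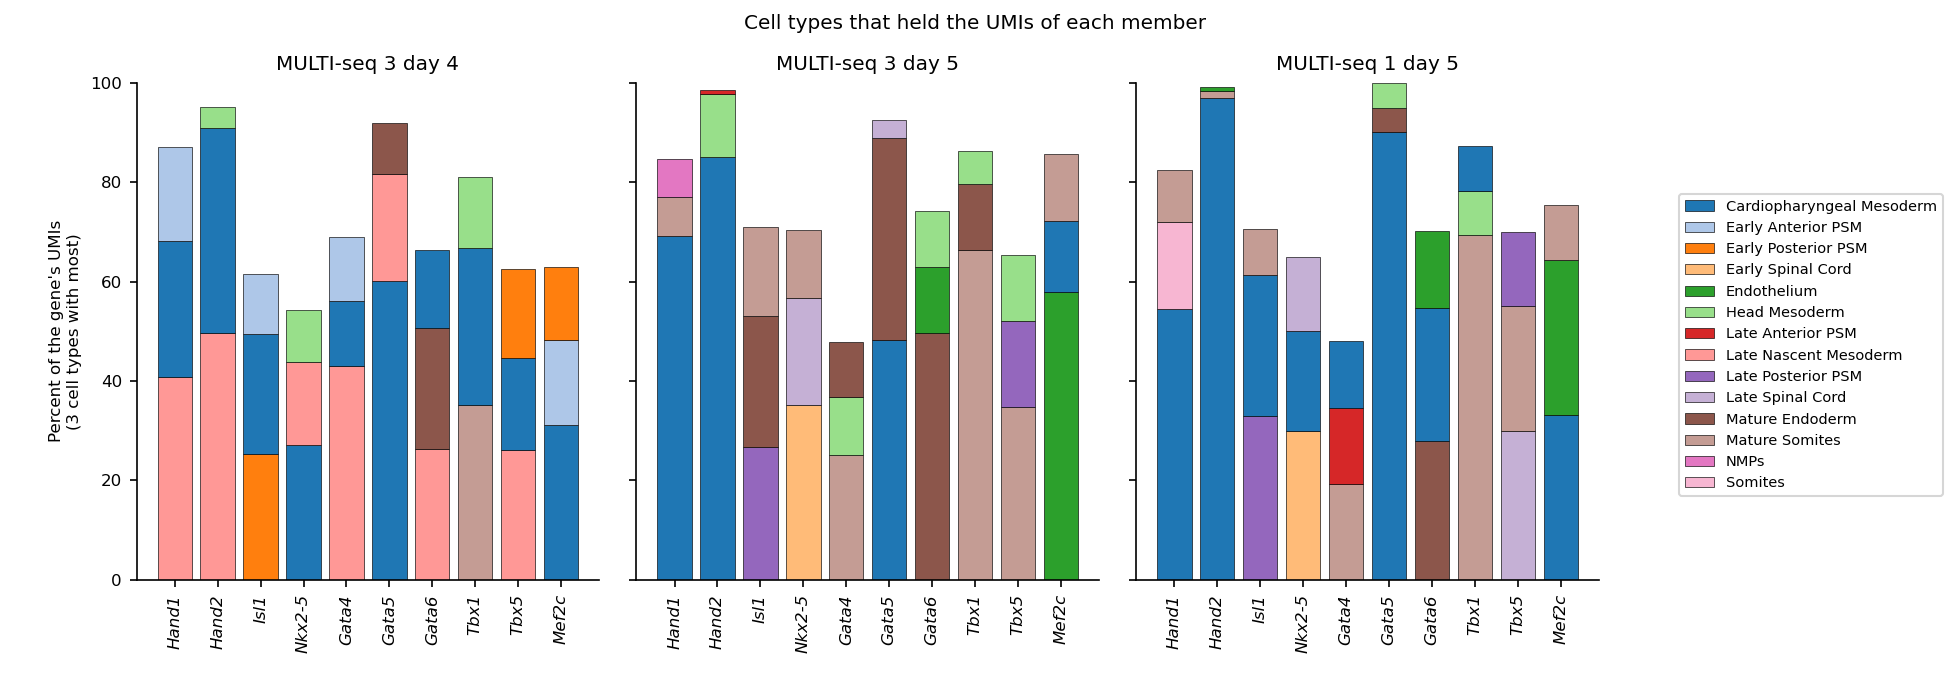
Percent of the UMIs of each member that lay in the 3 cell types with most of them, stacked by type, for MULTI-seq 3 at day 4 and day 5 and MULTI-seq 1 at day 5. Hand2 is split between Late Nascent and Cardiopharyngeal Mesoderm at day 4 (49.7% and 41.2%) and lies almost wholly in Cardiopharyngeal Mesoderm at day 5, whereas Tbx1 lies mostly in Mature Somites at day 5.

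Within Cardiopharyngeal Mesoderm, gastruloids of the same day covered wide ranges of Hand1 and Tbx1. The 8 day 4 gastruloids of MULTI-seq 3 with at least 10 such cells are given here in order of their Hand1 level. Hand1 was 5.29, 6.71, 18.4, 24.5, 33.7, 38.0, 226 and 280 CPM, from 92, 173, 12, 56, 426, 342, 86 and 12 cells. Tbx1 in the same gastruloids and order was 61.7, 69.6, 14.3, 45.2, 53.9, 69.4, 5.00 and 0 CPM. The pair of gastruloids with the highest Hand1 thus had the lowest Tbx1. Hand2 ran over 8.17 to 37.7 CPM, Isl1 over 34.1 to 90.7 and Gata6 over 37.9 to 65.3 in these gastruloids, with no gastruloid at 0. Mef2c ran over 5.00 to 63.3 CPM, Gata4 over 4.08 to 21.8 and Gata5 over 0 to 15.0.

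In MULTI-seq 2 the 4 day 4 gastruloids with enough such cells had Hand1 at 0, 0, 9.07 and 178 CPM and, in the same order, Tbx1 at 81.8, 47.3, 45.3 and 2.92 CPM, from 12, 14, 33 and 13 cells. The one with high Hand1 again had the lowest Tbx1. At day 4.5, the 4 gastruloids had Hand1 at 0, 0, 3.24 and 7.39 CPM and Tbx1 at 68.3, 116, 38.9 and 24.6 CPM. This inverse order was noticed in the data and was given no test. Between these days within the type, 0.366% of 4643 genes were called and 0 of the 2 members tested, Isl1 (0.35 ± 0.36, adjusted p = 0.831) and Tbx1 (0.16 ± 0.45, adjusted p = 0.952). Both unadjusted p were above 0.05, and DESeq2 also called 0. Hand1 failed the filter on low counts and was called with no filter (-3.25, adjusted p = 2.27e-09), on 1 gastruloid at 178 CPM. Meis2 (1.13 ± 0.15, adjusted p = 0.000652) and Meis1 (1.15 ± 0.24, adjusted p = 0.0394) rose and Aldh1a2 fell by 1.37 ± 0.22 (adjusted p = 0.00446). In the same cells the 1 endothelial marker tested of 8 was higher (3.38), with a summed level of 4.97 to 32.7 CPM at day 4 and 53.5 to 174 at day 4.5, and the extraembryonic endoderm markers, of which 0 were tested, summed to 7.46 to 13.1 and 19.7 to 85.4 CPM. Pooled over all cells of the type, 5 of the 6 extraembryonic endoderm markers were under 1 CPM, and Dab2, highest in Endothelium, had 13.9 CPM. The part of these markers in the changes was not tested.

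At day 5 the few Cardiopharyngeal Mesoderm cells had high Mef2c and Hand2. The 2 gastruloids of MULTI-seq 1 with enough cells (65 and 70) had Mef2c at 198 and 150 CPM, Hand2 at 72.8 and 75.3, Isl1 at 125 and 110, Hand1 at 27.5 and 11.5 and Tbx1 at 19.2 and 28.2. The single day 5 gastruloid of MULTI-seq 3, with 59 cells, had Mef2c at 135 CPM, Hand2 at 58.3, Isl1 at 66.6, Hand1 at 13.4 and Tbx1 at 25.8. In the 8 day 4 gastruloids of MULTI-seq 3, Mef2c was 5.00 to 63.3 CPM and Hand2 at most 37.7. They came from another pool or experiment than these 3, so day cannot be told apart from pool and experiment. These differences were not tested, since fewer than 4 gastruloids of a day 5 group had enough cells.

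Pooled over the same cells, 13 of 18 contractile genes stood above their day 4 level of MULTI-seq 3 in both day 5 groups and 3 stood below it, with 4 at 0 in both day 5 groups. Of 18 cardiac progenitor regulators 7 stood above and 8 below, of 18 pharyngeal and second heart field genes 9 and 7, and of 7 ligands 3 and 1. Among the 20293 genes with a UMI in these cells, 21.7% stood above and 44.7% below, with 4784 genes at 0 in both day 5 groups, which held fewer cells than day 4. These pooled levels were not tested, and 1 gastruloid held 85.5% of the 69 day 5 cells of MULTI-seq 3. Pooled over Cardiopharyngeal Mesoderm, Tnnt2 was 0.477 CPM at day 4 of MULTI-seq 3 and 49.6 and 120 CPM at day 5 of MULTI-seq 3 and MULTI-seq 1. Tnni1, slow skeletal troponin I that the early heart also uses, was 26.4, 78.0 and 135 CPM in the same order. Hopx, a homeodomain protein of cardiac progenitors, was 1.02, 41.7 and 103 CPM. The summed level of all 18 contractile genes was 653 to 2018 CPM in the 8 day 4 gastruloids, 1307 in that of MULTI-seq 3 day 5 and 1750 and 2391 in those of MULTI-seq 1. The endothelial markers had a sum of 6.1 to 57.5 CPM at day 4 against 70.2 at day 5 of MULTI-seq 3 and 68.0 and 117 in MULTI-seq 1. Of these 8 markers Kdr, a receptor that mesoderm progenitors also carry, had 21.2 CPM at day 4 and 59.4 and 81.1 CPM at day 5 of MULTI-seq 3 and MULTI-seq 1. The other 7 (Cdh5, Pecam1, Etv2, Tal1, Tek, Sox18 and Plvap) had 0 to 4 UMIs each at day 5 of MULTI-seq 3 and 0 to 7 in MULTI-seq 1. The extraembryonic endoderm markers summed to 4.08 to 13.8 CPM at day 4 against 45.9 and, in MULTI-seq 1, 46.0 and 56.3 at day 5. Those of spinal cord summed to 43.9 to 95.98 against 96.02 and 129 and 136. Pooled over all cells of the type, 5 of the 6 extraembryonic endoderm markers were under 1 CPM. The remaining one, Dab2, had 13.9 CPM, and its highest level was in Endothelium (47.5 CPM). Irx3, at 58.0 CPM, was the highest of the spinal cord markers in these pooled cells. In the 4 day 4.5 gastruloids of MULTI-seq 2 the endothelial sum was 53.5 to 174 CPM, with Mef2c in the type at 13.7 to 60.1 CPM. The part of these types in the high Mef2c was not tested.

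Lanes without gastruloid calls added further levels for the type. In the 10X day 4 lane, 462 cells had Hand1 at 304 CPM (exact Poisson 95% interval 292 to 318), Hand2 at 77.5 (71.1 to 84.3) and Tbx1 at 35.4 (31.1 to 40.1). In the lanes of pool C of MULTI-seq 2, 112 and 100 cells had Mef2c at 188 and 161 CPM, Hand1 at 83.0 and 94.8, Hand2 at 63.5 and 70.0 and Tbx1 at 16.2 and 23.5. The Hand2 level of the 10X day 4 lane was above that of the day 5 gastruloids given before. The Mef2c and Hand2 levels of pool C lay within the range of those gastruloids. High levels of these genes in the type were thus not particular to day 5. These lanes mix gastruloids and, in pool C, both days.

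**Figure D4:**
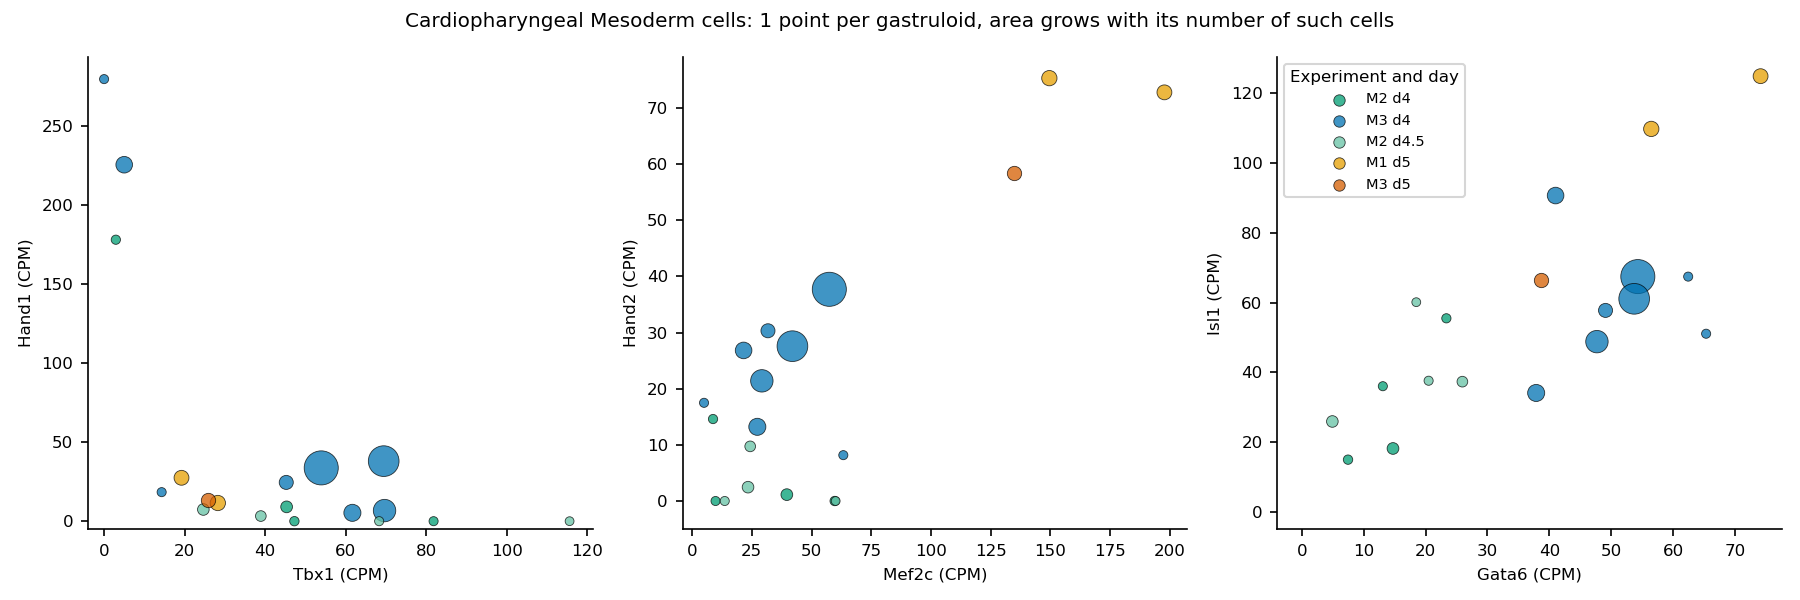
Levels in Cardiopharyngeal Mesoderm cells, 1 point per gastruloid with at least 10 such cells (19 in all), coloured by experiment and day and with an area that grows with the number of cells; axes in CPM. Gastruloids with Hand1 of 178 CPM or more have Tbx1 of 5.00 CPM or less, and the day 5 gastruloids lie at high Mef2c and Hand2. Lanes without gastruloid calls are not shown.

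The names from the authors' mapping to an embryo reference set some smaller fractions of the type apart by the same genes. Of the 2360 Cardiopharyngeal Mesoderm cells, 121 mapped to lateral plate mesoderm and had pooled levels of 470 CPM for Hand1, 93.8 for Hand2 and 1.76 for Tbx1. The 107 mapped to nascent mesoderm had Hand1 at 222 CPM and Tbx1 at 4.81. The 366 mapped to cardiopharyngeal progenitors of the second heart field (SHF) had Hand1 at 20.8 CPM and Tbx1 at 79.5. The 57 mapped to cardiomyocytes had Mef2c at 387 CPM, Isl1 at 186, Hand2 at 145 and Tbx1 at 7.52. The largest fraction, 975 cells or 41.3%, mapped to paraxial mesoderm and had Hand1 at 46.6 CPM and Tbx1 at 51.6. The 300 cells (12.7%) mapped to FHF cardiopharyngeal progenitors had Hand1 at 21.5 CPM, Hand2 at 37.9 and Tbx1 at 51.1. In Hand1 and Hand2 they were close to the SHF cells (Hand2 at 39.8 CPM). The larger fractions thus held both Hand1 and Tbx1. Since the mapping used expression, these levels are a description.

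Cells with UMIs of 2 members were counted in 12 gastruloids with at least 20 thinned cells of the type (1452 cells). They were set against the number that the product of the single shares gives in each gastruloid, summed over gastruloids. Hand1 and Tbx1 were found together in 8 cells against 25.4 from the products, and in 5 against 10.7 when cells were thinned to 3000 UMIs. The product gave at least 1 cell in only 4 of the 12 gastruloids, and those 4 were below it. Gata6 and Tbx1 were found together in 45 cells against 52.5, and in 20 against 20.3 at 3000 UMIs. Isl1 and Hand2 were found together in 69 cells against 51.1 (32 against 21.4 at 3000 UMIs), above the product in 7 of the 9 gastruloids where it gave at least 1 cell. Mef2c and Hand2 shared 52 cells against 37.2 (22 against 14.7), and Hand1 and Hand2 shared 33 against 19.2 (12 against 8.83). For Hand1 and Hand2 the product gave at least 1 cell in only 3 gastruloids, and at 3000 UMIs 2 of 3 such gastruloids were below it. Gata4 and Hand1 shared 25 cells against 8.42, and 8 against 4.44 at 3000 UMIs. These are small counts, and the gastruloids with most cells weigh most in them. In all, 14 pairs were looked at, without a test.

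**Figure D5:**
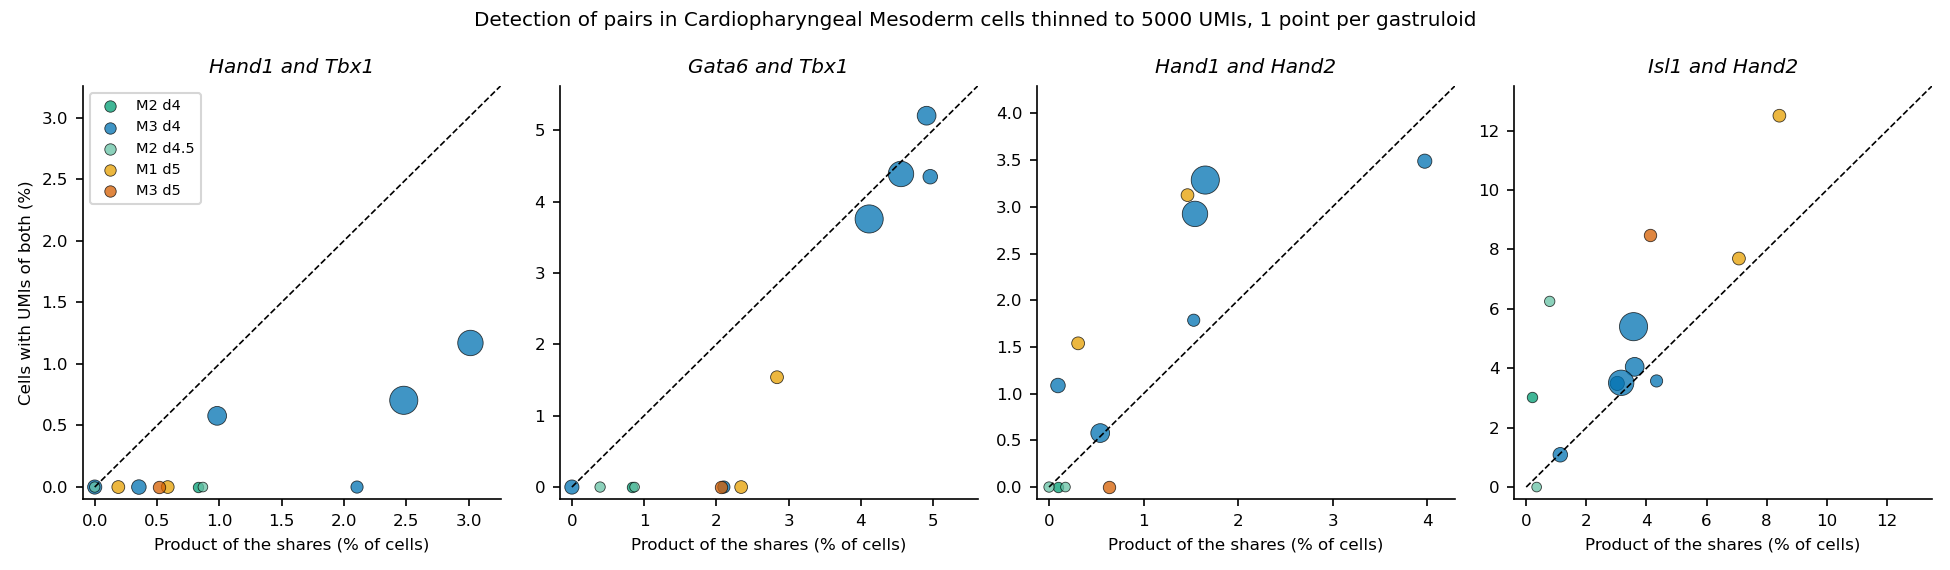
Percent of Cardiopharyngeal Mesoderm cells with UMIs of both genes of a pair (vertical) against the product of the 2 single shares (horizontal), 1 point per gastruloid after thinning to 5000 UMIs; the dashed line marks equality. All points for Hand1 and Tbx1 lie on or below the line, where the product gives at least 1 cell in 4 of 12 gastruloids, and 9 of 12 points for Isl1 and Hand2 lie above it.

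In the 3 fits made within a cell type, the single call of a member was Isl1 in Mature Endoderm cells, and the filter on low counts largely fixed its direction. Isl1 was 0 to 14.9 CPM at day 4.5 of MULTI-seq 3 (median 5.76, n = 7) and 3.44 to 24.8 CPM at day 5 (median 17.7, n = 9), with overlap between the days. The log2 difference was 1.43 ± 0.37 (adjusted p = 0.0496, edgeR), and 1.63% of 8363 genes were called, 0.634% as higher. Gata6, an endoderm factor, did not pass in the same cells (-0.21 ± 0.16, adjusted p = 0.628). The Isl1 call was lost with RLE size factors (adjusted p = 0.0501), with at least 20 cells of the type per gastruloid (adjusted p = 0.391) and without lane A, B or C (adjusted p = 0.209, 0.325 and 0.310). Of the 7 gastruloids of day 4.5, only 2 remained with at least 20 cells, 6 without lane A and 4 without lane B or C. The fold change lay between 1.41 and 1.63 in these fits. Meis2 (2.35 ± 0.48, adjusted p = 0.0107), Foxc1 (1.88 ± 0.40, adjusted p = 0.0149) and Tnnc1 (1.47 ± 0.31, adjusted p = 0.0128) were also called higher in these cells, as was Tpm1 (0.86 ± 0.17, adjusted p = 0.00796). They were 1 of 4 regulators, 1 of 6 pharyngeal and second heart field genes and 2 of 4 contractile genes tested. With at least 20 cells of the type, 0 genes of the whole fit were called higher, so these calls were lost too, and 1 gene was called higher without lane C. Of the Mature Endoderm markers, 7 of 8 were tested, 1 was lower and 0 were higher at day 5. Isl1 reached the level that the filter asked for (7.84 CPM) in 1 of 7 gastruloids at day 4.5 and in 7 of 9 at day 5, so it passed mainly through day 5 and the call is no support for a rise. Of 5 spinal cord markers, 2 were tested and 1 was higher (median log2 difference 1.20), and their summed level in these cells was 2.18 to 74.7 CPM at day 4.5 and 31.8 to 141 CPM at day 5, with none of the 5 at 0. The 8 cardiac markers other than the members, of which 0 were tested, summed to 0 to 4.36 CPM and 2.58 to 27.1 CPM. The 6 extraembryonic endoderm markers, of which 0 were tested, summed to 0 to 8.70 CPM (median 1.87, 3 genes at 0) and 0.721 to 81.4 CPM (median 4.83, 0 genes at 0), and the 5 Early Nascent Mesoderm markers, with 0 of 2 tested called, to 52.2 to 233 and 25.2 to 131 CPM. The part of these types in the Isl1 values was not tested. At day 5, Mature Endoderm cells of MULTI-seq 3 (n = 9) and MULTI-seq 1 (n = 6) differed in 14.5% of 8344 genes, and 0 of the 3 members tested passed. Isl1 differed by 0.01 ± 0.42, Gata6 by 0.00 ± 0.21 and Tbx1 by 0.06 ± 0.52, all with an unadjusted p above 0.05. DESeq2 called neither Isl1 nor Gata6 there and gave no adjusted p for Tbx1.

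The genes whose levels followed a member most closely over the 25 types were found by Pearson's r of log2(CPM + 1) among 10773 genes, as a description with no test. Types share lanes and depth. Hand1 was nearest to Osr1 (r = 0.87), Rgs5 (0.86) and Wnt2 (0.85). Hand2 was nearest to its overlapping neighbour Hand2os1 (0.93), Prdm6 (0.89) and Tcf21 (0.81). Tbx1 was nearest to Npr3, Itih5 (both 0.92) and Gm12829 (0.91), and Mef2c to Zfpm2 (0.85), Yju2 and Msn (both 0.82). Gata6 was nearest to Gata4 (0.89), Lhx1 (0.88) and Rbms1 (0.87), and Gata4 to Dusp9, Amhr2 (both 0.92) and Rgs5 (0.91). Isl1 was nearest to Myadm (0.87), Mier2 and Rab5b (both 0.85). Gata5 and Tbx5, at low levels throughout, each had Tcf21 (0.82 and 0.88) among their 3 nearest genes. Nkx2-5, whose pooled level stayed at or under 0.841 CPM in all types, was nearest to Pgm2l1 (0.81), Dusp26 (0.80) and Mcub (0.79). That highest level was 1 UMI in the 70 Neurons cells, the type in which these 3 genes were highest, so the likeness rests on very few molecules.

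The related lists were also read in the Cardiopharyngeal Mesoderm cells. Among genes that reached 10 CPM in some type, the highest pooled level was in that type for 1.91% of 10773 genes, for 3 of 13 cardiac progenitor regulators, 4 of 16 pharyngeal and second heart field genes, 2 of 8 contractile genes and 2 of 7 BMP and FGF ligands. Among the highest levels in each list were those of Meis2 (247 CPM) and Meis1 (83.4), of Aldh1a2 (230), Foxc1 (83.4) and Foxc2 (56.9), of Tpm1 (685), Tnni1 (33.2) and Ttn (21.4), and of Bmp4 (52.2), Bmp5 (17.1) and Bmp7 (16.8). The Head Mesoderm markers Prrx1 (77.4 CPM) and Six2 (38.2 CPM) were also highest in these cells, and 4 of 8 endothelial, 5 of 6 extraembryonic endoderm and 5 of 7 neuronal markers were under 1 CPM. Fewer markers were that low for Somites (2 of 6), spinal cord (1 of 5) and Early Nascent Mesoderm (1 of 5), with Tcf15 at 102 CPM, Irx3 at 58.0 and Mesp1 at 18.6 in these cells.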

How the data were processed

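The deposited matrices hold UMI counts per gene and cell, whole numbers with no normalization, made with Cell Ranger 6.0.0 on mm10 per the submitters' processing notes, which also name Seurat. No source used here names the gene annotation. Cells, gastruloid calls, days, 25 cell type names and reference names came from the authors' deposited cell table. Counts were summed per gastruloid over its lanes and tested with edgeR 4.0.16 (quasi-likelihood, TMM, filterByExpr) in R 4.3.3, called at an adjusted p under 0.05 over all genes tested. Gastruloids needed 30 cells, or 10 cells of a type, and a main test within a type needed 4 gastruloids per group. Its alternatives were run with as few as 2. Alternatives were DESeq2 1.42.0, RLE size factors, no filter, 100 or 20 cells, Cardiopharyngeal Mesoderm left out, each lane left out, reference names, thinning to 3000 UMIs and, added after seeing the data, cells marked as doublets left out. The test was tested on simulated counts with known changes. The members and lists were chosen with earlier results of these data known. Named were the 10 members, their 3 nearest genes over types, and in each list up to 3 called genes of largest change and the 3 of highest level in Cardiopharyngeal Mesoderm. Some genes that this rule names are not reported here. MULTI-seq 2 at days 3 and 3.5 was not analysed here.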

Additional observations from a re-analysis of the deposited data

Results flagged for a closer look

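Single values stood apart from the others of their group in 8 of 62 groups of 4 to 10 values by Dixon's criterion, where chance alone flags about 1 in 20. In Cardiopharyngeal Mesoderm cells, Hand1 at day 4 of MULTI-seq 2 had a highest value of 178 CPM with the next at 9.07 (n = 4), and Nkx2-5 at day 4 of MULTI-seq 3 had 1.84 CPM with the next at 0.834 (n = 8). In Head Mesoderm cells of MULTI-seq 3, Gata4 at day 4 had 17.0 CPM with the next at 8.67 (n = 7), and Isl1 at day 5 had 12.9 CPM with the next at 4.24 (n = 7). In Mature Endoderm cells of MULTI-seq 3, Isl1 at day 4.5 had 14.9 CPM with the next at 6.23 (n = 7), and Tbx1 at day 5 had 18.6 CPM with the next at 11.5 (n = 9). In MULTI-seq 3, over all cells of the 4 lanes shared by days 3.5 and 4, Gata6 was highest at 21.9 CPM in 1 lane with the next at 20.6, and Hand1 was lowest at 10.1 CPM in 1 lane with the next at 10.5.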

How the results depend on the processing

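Of 207 log2 fold changes of members under the alternatives, 197 kept their side of the threshold, 5 passed it newly and 5 no longer passed it. Among those called in either fit 0 changed sign, and a change of sign with neither fit called was counted as kept. Fits that gave a member no adjusted p, as where it failed the filter, are not among the 207. The number of members called moved as follows. For day 4 against day 3.5 of MULTI-seq 3 it went from 6 to 9 with no filter, 7 with at least 100 cells (Tbx5 added) and 4 to 5 with a lane left out, where Hand2 and, once, Tbx1 failed the filter. For day 5 against day 4.5 of MULTI-seq 3 it went from 0 to 1 with DESeq2. For day 4.5 against day 4 of MULTI-seq 2 it went from 0 to 1 with no filter. It was 2 with at least 100 cells (Gata6 and, in a direction that the filter largely fixed, Gata4). It was 1 without Cardiopharyngeal Mesoderm cells and 1 to 1 with a lane left out, where genes called were 340 to 535 against 814. For day 5 of MULTI-seq 3 against MULTI-seq 1 it went from 0 to 1 (Gata4, with no filter). Within Cardiopharyngeal Mesoderm of MULTI-seq 2, no filter gave 1 member and 106 genes against 17 genes. Within Mature Endoderm, day 5 against day 4.5, it went from 1 to 0 with RLE size factors, with at least 20 cells and with any lane left out (0 to 0), and genes called were 242 with no filter, 6 with 20 cells and 9 to 47 with a lane left out, against 136. In Mature Endoderm at day 5, MULTI-seq 3 against MULTI-seq 1, genes called were 485 to 1226 with a lane left out, against 1212. The 485 came without lane 2 of MULTI-seq 1, which left 2 of its 6 gastruloids. With embryo-reference names the highest mean level was 73.4 CPM for Gata6, 80.8 for Tbx1 and 53.9 for Mef2c, while the other 7 moved by less than 1 SD. These include Hand1, whose highest mean was then 18.0 CPM in Paraxial mesoderm against 46.4 in Cardiopharyngeal Mesoderm (SD 83.2), and Isl1, at 37.1 against 56.1. Leaving out cells marked as doublets, chosen after seeing the data, kept the shares of Cardiopharyngeal Mesoderm cells with a UMI of each of the 10 members within their intervals. The cause of these changes was not tested. Fits within Cardiopharyngeal Mesoderm of MULTI-seq 2 with 20 cells or without a lane were not run, as 1 gastruloid remained at day 4, and 9 other comparisons within types were not run, as a group had under 4 gastruloids. No paired analysis was possible because gastruloids of different days share no number and lanes are technical splits. Nkx2-5, Tbx5 and Gata5 failed the filter on low counts in every comparison as reported. They were tested only in alternatives. With at least 100 cells Tbx5 passed it at day 4 against day 3.5 and was called higher, a direction that the filter fixed: among all gastruloids it reached the filter's level in 0 at day 3.5 and 13 at day 4.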
